A study of Arabis alpina with 12 samples.

Results

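The genes described here are those with more reads in pep1-1 than in wild type (WT) in both leaf and shoot apex of Arabis alpina, and 77 of the 35465 annotated genes met that description (0.217%). Levels are in CPM, read counts scaled to 1000000 reads per library, with 1 transcript used for each gene. Members were chosen by these measured levels: a gene was taken when, in leaf and in apex alike, log2 of (mean CPM in pep1-1 + 0.5) over (mean CPM in WT + 0.5) was at least 0.585, which is a 1.5-fold difference, and when its lowest pep1-1 library lay above its highest WT library. That quantity is called the log2 ratio below; the added 0.5 CPM makes it understate the difference of genes with low levels. The genotype differences in both organs chose the members, so they are given as a description, with no test. Members are numbered 1 to 77 by the smaller of their 2 log2 ratios, with member 1 the highest.

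In Arabis alpina, PEP1 is the orthologue of FLC, the MADS-box transcription factor that represses flowering in Arabidopsis thaliana until prolonged cold lowers its expression. Arabis alpina is a perennial relative of Arabidopsis, and PEP1 restricts its flowering to the season after cold, whereas pep1-1 mutants flower without cold. The series compares the gene networks governed by FLC and by PEP1 in these species.

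The groups were pep1-1 leaf, WT leaf, pep1-1 apex and WT apex, with 3 libraries of polyadenylated RNA in each. All plants were of the accession Pajares kept under long days at 22 °C and harvested at ZT8, which is 8 h into the light period; their age is 2 weeks in the labels and 10 days in the design text. Mutant libraries carry PEP1 in their titles and pep1-1 in their genotype label, and every direction given here rests on the genotype label. A single mutant line was compared, so effects of the mutation and of anything else that separates this line from WT cannot be told apart. Nothing in the labels says whether replicates came from separate plants, so the p-values below reflect only library-to-library spread, which may be technical. Libraries held between 19746210 and 43695184 counted reads. Replicates of a group were never copies of each other: their counts differed beyond counting noise, with chi-square values of 5.38 to 83.2 per degree of freedom. Gene identifiers come without names in the files: PEP1 itself, gene functions and organ markers were not analysed here, and loci other than members 1 and 2 are given by position, in the coordinates of the deposited tables.

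Taken by themselves, the leaf criteria were met by 213 genes (0.601%) and the apex criteria by 293 genes (0.826%), so the 77 members were 36.2% of the leaf genes and 26.3% of the apex genes. A further 239 genes had all pep1-1 libraries above all WT libraries in both organs but missed the fold minimum in at least 1 organ. Every member had reads in all 6 pep1-1 libraries, 73 had reads in all 12 libraries, and all 77 passed the low-count filter of each test used here. The same rule turned round gave 61 genes lower in pep1-1 in both organs. Membership moved with the settings of the rule. Leaving out replicate 3 of pep1-1 leaf gave 120 genes, an added value of 0.1 CPM in place of 0.5 gave 116, and a 2-fold minimum gave 26. Scaling with TMM factors, which correct library sizes for differences in composition, gave 112.

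Most members differed by less than 4-fold between the genotypes, and a small leading group differed by far more. The median log2 ratio of the 77 members was 0.93 in leaf, against -0.028 over the 23517 genes tested in all 12 libraries, and 1.01 in apex, against -0.068. A log2 ratio of at least 1 was met by 35 members in leaf, 39 in apex and 26 in both, while 29 members were under 1 in both organs. A log2 ratio of at least 2 was met by 8 members in leaf, 7 in apex and 5 in both. These counts include the added 0.5 CPM and so are lower than counts of plain fold differences. Members 7 and 8 were under 2 in both organs, though their mean CPM differed by over 4-fold in each. The highest log2 ratios were 5.39 in leaf and 4.5 in apex, both of member 1. In bulk organs such as these, more cells of a type and more RNA per cell cannot be told apart.

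**Figure D1:**
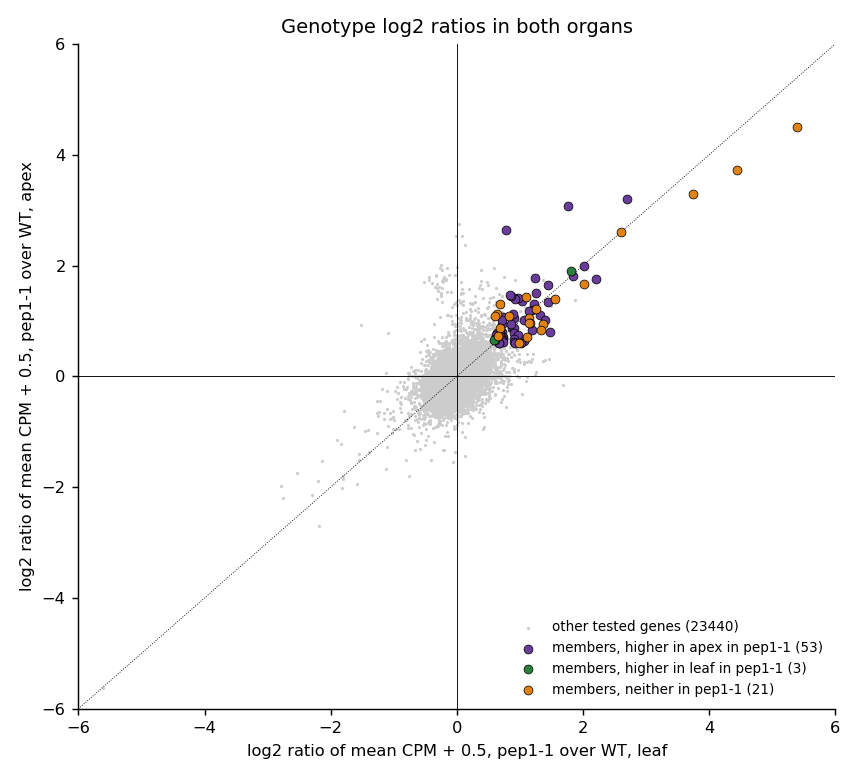
Log2 ratio of pep1-1 over WT in apex (vertical axis) against that in leaf (horizontal axis), 1 point per gene, with the 77 members coloured by their organ call in pep1-1 and the other tested genes in grey; the dotted line marks equal ratios. Most members lie near the dotted line and close to the minimum of 0.585, and 5 members are at 2 or more on both axes.

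The log2 ratios in leaf and apex were close for most members, which the rule itself favours. Those of 67 members lay within 0.5 of each other. A further 7 members had a ratio larger in apex by more than 0.5 and 3 had one larger in leaf by more than 0.5. The rule set the same minimum in both organs, most members lay near it, and the added 0.5 CPM understates differences at low levels. Without the added 0.5 CPM, mean pep1-1 over mean WT CPM was 3.39 in leaf and 1.82 in apex for member 40. For member 8, like member 40 among the 67, it was 4.38 in leaf and 7.37 in apex. Close log2 ratios therefore do not show that the difference was of equal size in the 2 organs. Across the 77 members the 2 ratios had Pearson's r of 0.87; this is across genes, which are not independent replicates, the rule removed every gene low on either axis, and members 1 to 3 lie far from the rest. The separation of the libraries was often narrow: the lowest pep1-1 level over the highest WT level had a median of 1.52 in leaf and 1.41 in apex, with a smallest value of 1.004 in leaf and 1.01 in apex. That ratio reached 1.5 in 41 members in leaf, in 33 in apex and in 22 in both.

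At the fold minimum, the 2 members just inside it were 77 (chromosome 6, 26946714-26947908), with log2 ratios of 0.585 in leaf and 0.655 in apex, and 76 (chromosome 8, 6153042-6155865), with 0.600 and 1.093. The 2 genes just outside were at chromosome 5, 1996325-1998072, with 0.585 in leaf after rounding and 0.849 in apex, and at chromosome 6, 14753457-14755194, with 0.584 and 0.611. Member 77 averaged 31.1 ± 5.02 CPM in pep1-1 leaf and 20.5 ± 1.89 CPM in WT leaf (SD, n = 3 each).

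Member 1, Aa_G647150 on chromosome 6 (4449808-4451761), had the largest log2 ratio in both organs. It had 43.6, 45.5 and 38.0 CPM in pep1-1 leaf, against 0.232, 1.14 and 0.191 CPM in WT leaf. In apex it had 21.6, 17.6 and 19.0 CPM in pep1-1, against 0.832, 0.214 and 0.101 CPM in WT. The pep1-1 libraries stood far above the WT libraries in each organ, and within WT a different library was the high one in each: replicate 2 in leaf and replicate 1 in apex. As pooled reads these levels were 3705 reads in pep1-1 leaf against 41 in WT leaf, and 2225 reads in pep1-1 apex against 37 in WT apex. The ratio of pooled levels, without the added 0.5 CPM, was 100 in leaf (95% exact interval 73.8 to 140) and 44.8 in apex (32.4 to 63.8), which is below that of member 2 in both organs and that of member 4 in apex.

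Member 2, Aa_G874400, is the only gene model on its scaffold (scaff_47458_1, 1-1630). It had 14.2, 13.6 and 13.5 CPM in pep1-1 leaf, against 0.0258, 0.412 and 0.0272 CPM in WT leaf. In apex it had 8.93, 6.99 and 6.36 CPM in pep1-1, against 0.149, 0.0918 and 0.0506 CPM in WT. The pep1-1 leaf libraries were close to each other, and replicate 2 held 9 of the 11 reads seen in WT leaf. The ratio of pooled levels was 122 in leaf (95% exact interval 68.1 to 245) and 69.7 in apex (36.6 to 153); these intervals cover counting error only, not the spread between libraries.

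Member 3, on chromosome 8 (26096563-26097447), had 8.13, 9.87 and 8.85 CPM in pep1-1 leaf, against 0.0258, 0.183 and 0.409 CPM in WT leaf. In apex its levels were 9.21, 7.54 and 9.06 CPM in pep1-1, against 0.327, 0.551 and 0.405 CPM in WT. The groups were widely apart in both organs, and the ratio of pooled levels was 42.9 in leaf (95% exact interval 27.6 to 70.6) and 20 in apex (14.4 to 28.5). The models on either side of member 3 had no reads in any library.

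Member 4, on chromosome 7 (25050637-25054110), was the only on-off case, defined as a mean of at most 0.1 CPM in WT and at least 1 CPM in pep1-1 in both organs. It had 64, 90 and 86 reads in pep1-1 leaf, against 3, 0 and 0 reads in WT leaf. In apex it had 89, 124 and 284 reads in pep1-1, against 0, 0 and 0 reads in WT. Replicate 3 of pep1-1 apex, with 6.50 CPM, was above the other pep1-1 apex libraries, with 2.78 and 3.11 CPM. The ratio of pooled levels was 88.8 in leaf (95% exact interval 30.0 to 434). In apex it was at least 123-fold higher in pep1-1, taking 3 reads over the whole WT group as the limit that a count of 0 allows, which is 0.0348 CPM. No other member was without reads in a whole WT group, and 11 members averaged under 1 CPM in WT in both organs.

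**Figure D2:**
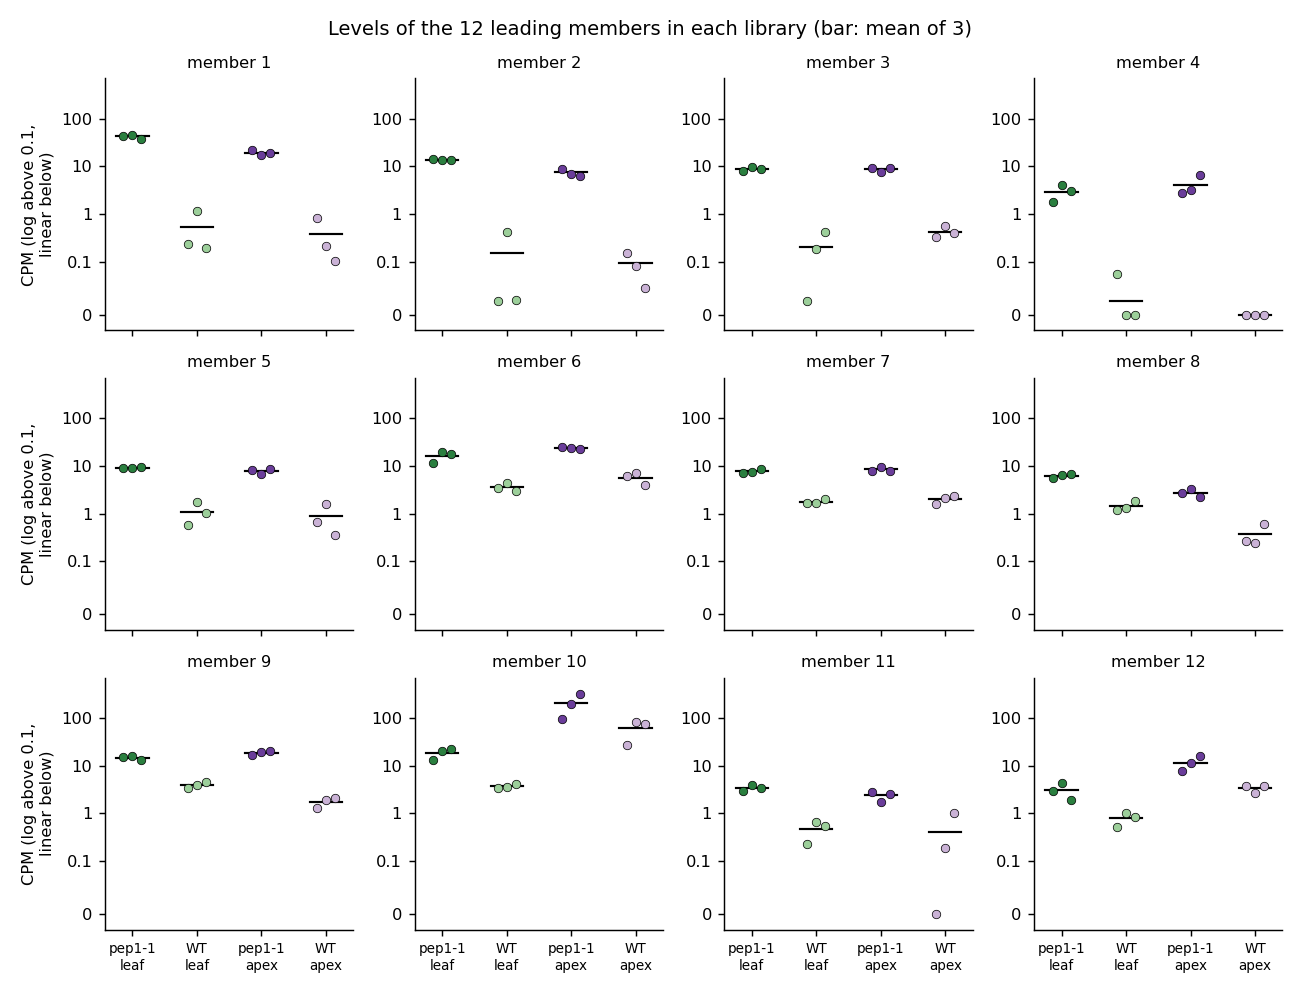
CPM in each library, on an axis that is logarithmic above 0.1 and linear below, of the 12 members with the largest smaller-of-2-organs log2 ratio, with pep1-1 left of WT in leaf and in apex; each point is 1 library and each bar the mean of 3. Member 4 has no reads in any WT apex library, and members 1 to 3 are under 2 CPM in every WT library.

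Members 5 to 8 were detected in all 12 libraries and were lower in WT without being absent. Member 5 (chromosome 3, 24168695-24171270) had 8.87, 9.25 and 9.57 CPM in pep1-1 leaf, against 0.567, 1.74 and 1.01 CPM in WT leaf, and 8.06, 6.74 and 8.74 CPM in pep1-1 apex, against 0.653, 1.62 and 0.354 CPM in WT apex. Its log2 ratio was 2.60 in each organ, and the genotypes did not overlap in either, which the rule requires of every member. Member 6 (chromosome 6, 29837860-29842808) averaged 16.1 ± 4.17 CPM in pep1-1 leaf and 3.62 ± 0.701 CPM in WT leaf, and 24.3 ± 1.23 CPM in pep1-1 apex and 5.72 ± 1.63 CPM in WT apex (SD, n = 3 each). Member 7 (chromosome 5, 18801877-18803808) averaged 7.73 ± 0.703 CPM in pep1-1 leaf and 1.79 ± 0.201 CPM in WT leaf, and 8.47 ± 1.07 CPM in pep1-1 apex and 2.04 ± 0.378 CPM in WT apex. The log2 ratios were 2.01 in leaf and 1.99 in apex for member 6, and 1.85 in leaf and 1.82 in apex for member 7, so each gene differed by about the same factor in both organs. Member 8 (chromosome 5, 19142676-19144240) was higher in leaf, with 6.29 ± 0.583 CPM in pep1-1 leaf and 1.44 ± 0.321 CPM in WT leaf, against 2.75 ± 0.564 CPM in pep1-1 apex and 0.373 ± 0.203 CPM in WT apex.

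Member 10 (chromosome 8, 10871531-10873515) was an abundant apex gene with a wide spread. It had 96.3, 201 and 319 CPM in pep1-1 apex, against 27.5, 80.9 and 73.3 CPM in WT apex. In leaf it had 13.2, 20.6 and 22.7 CPM in pep1-1, against 3.43, 3.48 and 4.11 CPM in WT. The apex groups were separated by the gap between 96.3 and 80.9 CPM, whereas the leaf groups were well apart. Member 11 (scaff_50665_1, 111689-113456) averaged 3.43 ± 0.487 CPM in pep1-1 leaf and 0.473 ± 0.214 CPM in WT leaf, and 2.37 ± 0.549 CPM in pep1-1 apex and 0.399 ± 0.540 CPM in WT apex (SD, n = 3 each). Member 12 (chromosome 2, 18607783-18609897) had log2 ratios of 1.45 in leaf and 1.65 in apex, and averaged 11.6 ± 3.95 CPM in pep1-1 apex and 3.36 ± 0.576 CPM in WT apex.

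Members spanned levels from near the limit of detection to well over 100 CPM. The median member had a mean of 5.91 CPM in pep1-1 leaf (range 0.591 to 144) and 1.86 CPM in WT leaf (0.0258 to 65.2). In apex the median was 15.6 CPM in pep1-1 (0.626 to 221) and 4.84 CPM in WT (0 to 145). Under 1 CPM were 4 members in pep1-1 leaf and 24 in WT leaf, and 2 in pep1-1 apex and 17 in WT apex. Summed over the 77 members, pep1-1 leaf libraries held 884 to 1100 CPM and WT leaf libraries 386 to 514 CPM, while pep1-1 apex libraries held 2259 to 3278 CPM and WT apex libraries 1179 to 1414 CPM.

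The members with the highest mean CPM in pep1-1 were 20, 71, 24, 10 and 14. Member 20 (chromosome 1, 20342825-20344620) averaged 144 ± 24.7 CPM in pep1-1 leaf and 65.2 ± 12.3 CPM in WT leaf, and 211 ± 45.7 CPM in pep1-1 apex and 93.2 ± 9.02 CPM in WT apex (SD, n = 3 each). Member 71 (chromosome 4, 16748707-16751481) had 202, 214 and 248 CPM in pep1-1 apex, against 137, 137 and 161 CPM in WT apex; its groups were close together, with a log2 ratio of 0.61. Member 24 (chromosome 5, 7912370-7915254) averaged 167 ± 36.4 CPM in pep1-1 apex and 64.8 ± 2.68 CPM in WT apex. Member 14 (chromosome 8, 21052870-21057508) had 183, 102 and 235 CPM in pep1-1 apex, against 66.6, 64.1 and 71.7 CPM in WT apex, so its pep1-1 libraries varied far more than its WT libraries. Per kilobase of annotated span, introns included, these 5 genes ranged in pep1-1 apex from 37.3 CPM for member 14 to 118 CPM for member 20. Member 43, a shorter gene, reached 125 CPM, and other short members matched or passed it, up to 128 CPM.

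Some libraries were the highest or the lowest of their group for many members, and others were not. Replicate 3 of pep1-1 apex held the highest level of its group for 50 of the 77 members, and replicate 2 the lowest for 42. In pep1-1 leaf, replicate 3 was lowest for 44 members, and replicate 1 was highest for 32 and lowest for 23; in WT leaf, replicate 1 was lowest for 43 and replicate 2 highest for 40; in WT apex, replicate 1 was lowest for 40 and replicate 3 highest for 37. The median deviation of the members from their group mean of log2 CPM was 0.23 in replicate 3 and -0.15 in replicate 2 of pep1-1 apex, while the median of the tested genes lay between -0.04 and 0.03 in all 12 libraries. Without replicate 3 of pep1-1 apex, 65 genes met the rule.

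**Figure D3:**
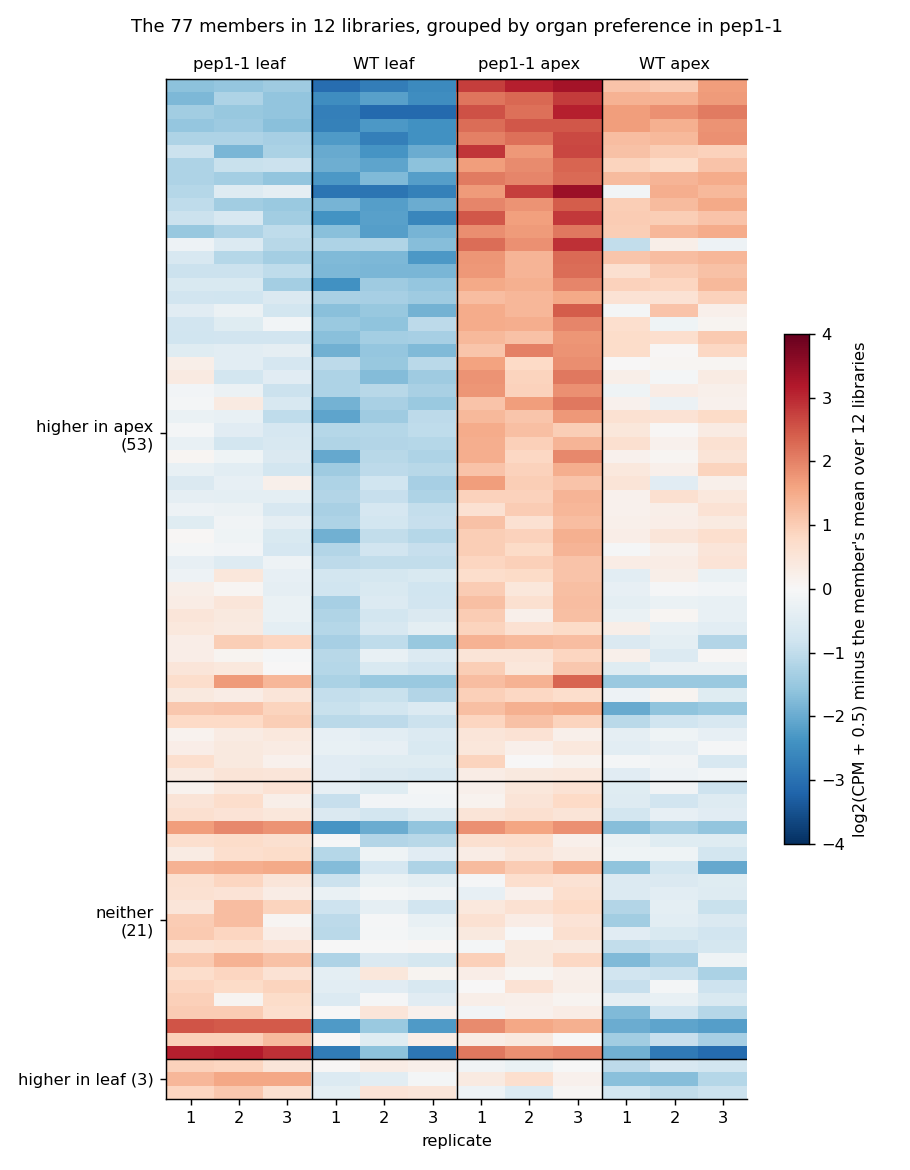
Levels of the 77 members (rows) in the 12 libraries (columns, pep1-1 left of WT within each organ), as log2 of CPM + 0.5 minus the mean of the row over the 12 libraries; rows are grouped by the organ call in pep1-1. Within each organ every row is higher in the pep1-1 columns, which the rule requires, and the 53 members higher in apex fill most of the plot.

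Comparing apex with leaf within a genotype asks which organ the members favour, a contrast the rule did not use. It was tested with the quasi-likelihood F test of edgeR over all 12 libraries with TMM factors, and a call means an adjusted p under 0.05 over the genes tested. Log2 fold changes are apex over leaf. They use TMM factors and the printed CPM do not, so they differ from the ratios of those CPM. In pep1-1, 53 of the 77 members were higher in apex, where 33.2% of all tested genes were, 3 were higher in leaf, where 35.0% of all were, and 21 were not called. In WT, 53 members were higher in apex (32.1% of all tested genes) and 8 were higher in leaf (32.9% of all). The median log2 fold change of the members was 1.51 in pep1-1 and 1.61 in WT, against -0.03 over all tested genes in each genotype. At least 4-fold higher in apex were 33 members in pep1-1 and 31 in WT, and at least 16-fold higher were 10 in pep1-1 and 9 in WT.

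The organ split depends in part on how libraries are scaled, because TMM factors were 0.785 to 0.870 in apex and 1.16 to 1.28 in leaf. With library sums in place of TMM factors, the median of all tested genes was -0.60 in pep1-1 and -0.58 in WT. The members then split into 45 higher in apex and 9 higher in leaf in pep1-1, and 47 and 8 in WT. Newly called in leaf of pep1-1 were members 1, 2, 22, 39, 52 and 64. Members 1 and 2 had -1.13 (edgeR adjusted p = 0.00261) and -0.89 (edgeR adjusted p = 0.00555). All 45 and all 47 were among the 53 called with TMM factors in the same genotype. The calls lost in pep1-1 were those of members 4, 7, 25, 50, 53, 57, 67 and 69, and in WT those of members 3, 7, 50, 51, 57 and 67. The 3 calls in leaf of pep1-1 also rest on few libraries: 1 was left without replicate 1 of pep1-1 leaf or replicate 2 of pep1-1 apex, and 0 without replicate 2 of pep1-1 leaf.

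**Figure D4:**
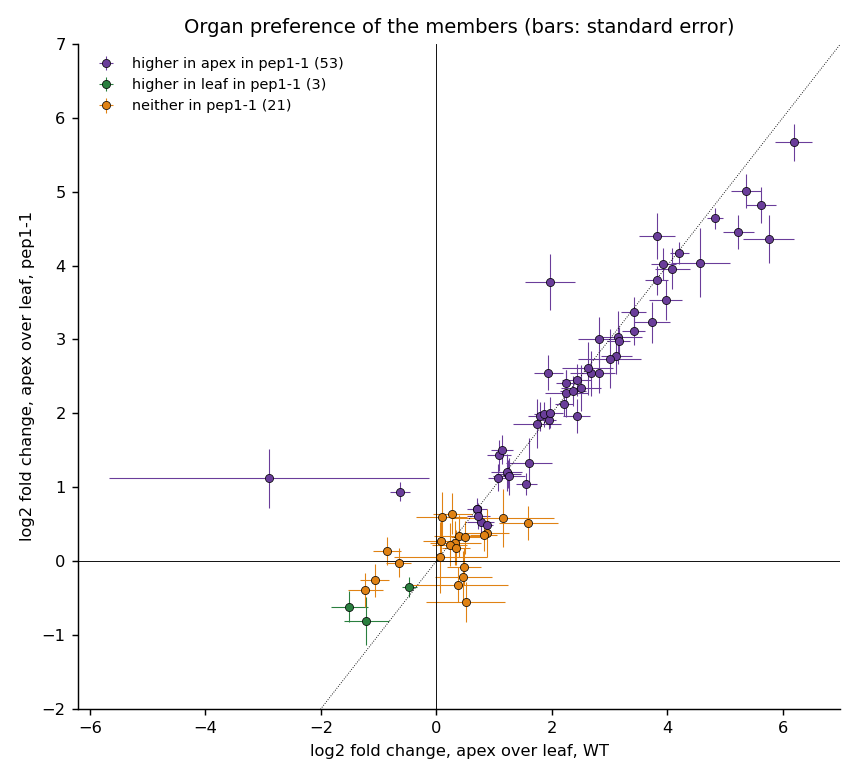
Log2 fold change of apex over leaf for each member in pep1-1 and in WT, from edgeR with TMM factors, coloured by the call in pep1-1, with standard errors as bars; positive values are higher in apex. Members called higher in apex reach 5.67 in pep1-1 and 6.19 in WT, both for member 16, and member 9 is above 0 in pep1-1 and below 0 in WT.

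In pep1-1, the members highest in apex relative to leaf were 16, 36, 42 and 43. Their log2 fold changes below use TMM factors. With library sums, as in the CPM, they were 5.09, 4.43, 4.24 and 4.06. Member 16 (chromosome 4, 13836170-13837749) had 33.1, 42.2 and 49.0 CPM in pep1-1 apex and 1.1, 1.2 and 1.35 CPM in pep1-1 leaf, and in WT it had 10.4, 9.46 and 15.2 CPM in apex and 0.103, 0.229 and 0.354 CPM in leaf. Its organ groups did not overlap in either genotype, and the difference was 5.67 (SE 0.25, edgeR adjusted p = 2.08e-09) in pep1-1 and 6.19 (adjusted p = 5.44e-09) in WT as a log2 fold change. Member 36 (chromosome 6, 4846196-4848460) averaged 28.9 ± 7.28 CPM in pep1-1 apex and 1.38 ± 0.371 CPM in pep1-1 leaf (SD, n = 3 each), a log2 fold change of 5.01 (SE 0.23). Member 42 (chromosome 2, 16675259-16677143) averaged 143 ± 45.4 CPM in pep1-1 apex and 7.54 ± 0.523 CPM in pep1-1 leaf, a log2 fold change of 4.82 (SE 0.24). Member 43 (chromosome 1, 346654-347680) averaged 128 ± 12.1 CPM in pep1-1 apex and 7.66 ± 0.630 CPM in pep1-1 leaf, with a log2 fold change of 4.64 (SE 0.14).

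The members higher in leaf in pep1-1 were 75, 8 and 77, and their differences were smaller. Member 75 (chromosome 7, 13574415-13575903) had 0.999, 0.677 and 1.33 CPM in pep1-1 apex and 2.64, 3.11 and 2.21 CPM in pep1-1 leaf, with a log2 fold change of -0.81 (SE 0.32, edgeR adjusted p = 0.0388). Member 8 had a log2 fold change of -0.62 (SE 0.21, adjusted p = 0.0202) and member 77 one of -0.35 (SE 0.13, adjusted p = 0.0243). All 3 were also higher in leaf in WT.

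The organ call was the same in both genotypes for 51 members higher in apex and 3 higher in leaf. A further 15 were uncalled in both, and a missing call does not show a shared preference. Some had few WT reads, such as member 2 with 11 in leaf and 9 in apex. Among the other 8, member 9 was higher in apex in pep1-1 and in leaf in WT. Member 4 was higher in apex in pep1-1 (not with library sums) and uncalled in WT. Its WT reads, 3 in leaf and 0 in apex, were too few to compare the organs. Another 2 were called in apex in WT alone and 4 in leaf in WT alone. By log2 ratio, the members with the largest genotype differences were not those highest in apex. The added 0.5 CPM lowers this ratio most at low levels, such as those of member 16 in leaf. The medians below may therefore not compare the classes evenly. Without the added value, mean pep1-1 over mean WT CPM in leaf was 5.32 for member 16, 81.1 for member 1 and 113 for member 4. The 53 members higher in apex in pep1-1 had a median log2 ratio of pep1-1 over WT of 0.90 in leaf and 0.94 in apex, with a maximum of 2.70 in leaf and 3.21 in apex, both of member 4. The 21 members uncalled with TMM factors had medians of 1.15 in leaf and 1.09 in apex and included members 1, 2, 3 and 5. With library sums, members 1 and 2 were called higher in leaf in pep1-1.

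Genes that favour the apex also differed slightly between genotypes outside the set. For 1477 non-members at least 4-fold higher in apex, the median pep1-1 over WT log2 fold change was 0.23 in leaf, with 82.6% of the 1109 tested there above 0, and 0.17 in apex, with 74.0% of the 1474 tested above 0. The 1241 non-members at least 4-fold higher in leaf had medians of -0.07 in leaf and -0.22 in apex. The 61 genes lower in pep1-1 in both organs comprised 19 higher in apex and 17 higher in leaf in pep1-1, with a median log2 fold change of -0.03. The part of organ-wide differences in the members' levels was not tested.

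The genotype by organ interaction asks whether the difference between pep1-1 and WT is of another size in apex than in leaf. It is the difference of the 2 genotype differences that chose the members, so it is not independent of that choice, and the members' counts are given as a description. No member passed (0 of 77, and 0.0% of all tested genes; edgeR), and the smallest adjusted p of a member was 0.19, for member 9. At an unadjusted p under 0.05 there were 9 members, with 6 larger in apex and 3 larger in leaf; over all tested genes the share was 4.21%, and nothing is read from setting the members against it. The Wald test of DESeq2 called 1 member, with an adjusted p of 7.73e-07, and limma-voom called 0, with a smallest adjusted p of 0.661. A p above the threshold does not show that the differences were equal in the 2 organs.

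Member 9 (chromosome 4, 21856576-21859137) was the gene DESeq2 called. It had 16.4, 19.1 and 20.3 CPM in pep1-1 apex, against 1.31, 1.90 and 2.08 CPM in WT apex. In leaf it had 14.9, 15.7 and 13.0 CPM in pep1-1, against 3.40, 3.89 and 4.47 CPM in WT. In pep1-1 every apex library lay above every leaf library, by a small margin, while in WT every apex library lay below every leaf library. Its apex over leaf difference on the log2 scale was 0.94 in pep1-1 (SE 0.13, edgeR adjusted p = 4.13e-05) and -0.63 in WT (SE 0.17, adjusted p = 0.00588), an interaction of 1.57 (SE 0.22). With library sums these organ differences were 0.36 in pep1-1 (adjusted p = 0.0336) and -1.18 in WT, so the directions were kept.

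Member 44 (chromosome 1, 871518-874211) had the largest gap between its log2 ratios, with 2.64 in apex and 0.78 in leaf. It had 20, 15.2 and 32.8 CPM in pep1-1 apex, against 1.72, 4.62 and 3.34 CPM in WT apex. In leaf it had 3.31, 2.49 and 1.52 CPM in pep1-1, against 1.37, 1.42 and 0.845 CPM in WT. The apex groups were well apart and the leaf groups nearly touched, and the interaction was 1.82 (SE 0.59, edgeR adjusted p = 1), which did not pass. The other members with a ratio larger in apex by more than 0.5 were 4, 9, 16, 37, 38 and 52. Of these, member 37 (chromosome 8, 103608-105602) had 1.46 in apex and 0.86 in leaf, member 38 (chromosome 7, 11555059-11556413) had 1.47 in apex and 0.85 in leaf, and member 52 (chromosome 5, 12395071-12395716) had 1.31 in apex and 0.69 in leaf. For member 16 the order depended on the added 0.5 CPM. Without it, mean pep1-1 over mean WT CPM was larger in leaf, at 5.32, than in apex, at 3.54. Members 1, 2 and 42 had larger ratios in leaf by more than 0.5.

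The contrast the rule used was also fitted per organ, and nothing is read from it about the members. With edgeR, 31 of the 77 members passed in leaf, where 0.249% of all tested genes were called higher in pep1-1, and 18 passed in apex, where 0.153% were. DESeq2 called 61 members in leaf and 65 in apex. A fit with a replicate block gave 23 in leaf and 61 in apex. With 1 library left out, the leaf count fell to 19 without pep1-1 replicate 1, 18 without pep1-1 replicate 2 and 17 without WT replicate 3, and the range was 17 to 45. The apex count ranged from 6 to 24, with 10 without pep1-1 replicate 1, 6 without WT replicate 1, 7 without WT replicate 2 and 9 without WT replicate 3.

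Members lay on all 8 chromosomes, with 74 on chromosomes and 3 on scaffolds; scaffolds hold 17.3% of all gene models. Chromosome 8 carried 18 members, chromosome 6 carried 12, chromosome 7 carried 11, chromosomes 2 and 5 carried 8 each, chromosome 4 carried 7, chromosome 1 carried 6 and chromosome 3 carried 4. As a share of the tested genes on the chromosome this ran from 0.131% on chromosome 3 to 0.519% on chromosome 7, with 0.327% over the genome. Member genes spanned a median of 1885 bp, against 2110 bp for the tested genes, and ranged from 444 to 13900 bp.

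Of the 77 members, 10 lay in 5 pairs within 10 kb, and each pair was adjacent with no gene model between. In the pair led by member 1, member 74 (chromosome 6, 4442887-4445828) ended 3979 bp before it. Member 74 was weakly expressed: it had 1.43, 0.578 and 1.14 CPM in pep1-1 leaf, against 0.180, 0.458 and 0.218 CPM in WT leaf, and 0.656, 0.652 and 0.572 CPM in pep1-1 apex, against 0.267, 0.306 and 0.152 CPM in WT apex. Its groups were apart in each organ, which the rule requires, and its lowest pep1-1 leaf library had 13 reads against 10 in its highest WT leaf library. Its log2 ratios were 0.98 in leaf and 0.60 in apex, far below those of member 1. The next model on the other side of member 1 (4462458-4465881) had log2 ratios of -0.22 in leaf and -0.08 in apex.

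Members 73 (38747962-38749748) and 31 (38750252-38752026) on chromosome 8 lay 503 bp apart. Member 73 averaged 14.1 ± 3.33 CPM in pep1-1 apex and 9.07 ± 1.45 CPM in WT apex, and member 31 averaged 7.79 ± 1.64 CPM in pep1-1 apex and 2.64 ± 0.990 CPM in WT apex (SD, n = 3 each). Both were higher in apex than in leaf, with log2 fold changes in pep1-1 of 2.98 for member 73 and 3.0 for member 31. The model beyond member 73 (38740440-38742197) met the apex criteria but not those of leaf: it averaged 5.75 CPM in pep1-1 apex and 2.66 CPM in WT apex, and 2.55 CPM in pep1-1 leaf and 2.06 CPM in WT leaf.

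Members 45 (32315412-32316191) and 61 (32322172-32322956) on chromosome 6 lay 5980 bp apart. Member 45 averaged 30.9 ± 7.15 CPM in pep1-1 apex and 18.1 ± 1.32 CPM in WT apex, and member 61 averaged 37.9 ± 7.47 CPM in pep1-1 apex and 24.1 ± 3.45 CPM in WT apex. The model on the other side of member 45 (32307482-32308087) had log2 ratios of 1.00 in leaf and 1.18 in apex, with 5.11 CPM in pep1-1 leaf and 2.30 CPM in WT leaf, and 7.43 CPM in pep1-1 apex and 3.0 CPM in WT apex. It met the criteria in apex, while its leaf libraries overlapped. This stretch thus held 3 adjacent models with log2 ratios above the minimum in both organs, of which 2 were members.

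Members 57 (15446068-15447710) and 28 (15450795-15452119) on chromosome 8 lay 3084 bp apart. Member 57 was called higher in apex in pep1-1, with a log2 fold change of 0.53 (SE 0.22, edgeR adjusted p = 0.0468), but not with library sums (-0.04), and member 28 was not called. Member 28 had 95.5, 83.8 and 55.2 CPM in pep1-1 leaf, against 21.4, 43.1 and 41.1 CPM in WT leaf, and member 57 had 19.2, 15.5 and 13.3 CPM in pep1-1 leaf, against 8.5, 8.20 and 8.34 CPM in WT leaf. In both genes pep1-1 leaf replicate 1 was highest and replicate 3 lowest. The last pair, members 15 and 29 on chromosome 7, is a nested overlap: the model of member 29 (5580365-5580865) lies inside that of member 15 (5580310-5581836). No strand setting is given in the sources used here, so their reads cannot be assigned to either, and the same reads may stand in both counts. Member 47 (chromosome 8, 257949-266189) also overlaps a model, at 265544-267201, that is no member. That model had 9.21, 7.74 and 0.412 CPM in pep1-1 apex, against 0.386, 0.826 and 0.101 CPM in WT apex, so 2 of the pep1-1 apex libraries were high and the third overlapped WT, while member 47 itself averaged 5.64 ± 1.06 CPM in pep1-1 apex and 2.67 ± 0.425 CPM in WT apex (SD, n = 3 each).

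The genes next to members mostly did not share the difference. Members had 149 adjacent models, of which 107 were tested (71.8%, against 77.6% of the models next to all tested genes). Among these 107, 10 were themselves members (9.35%, against 0.307% for the neighbours of all tested genes), all of them from the 5 pairs. Each pair is counted from both sides, and the nested overlap of members 15 and 29, whose counts may hold the same reads, is among them. The other 97 of the 107 had median log2 ratios of 0.005 in leaf and -0.007 in apex, against -0.027 and -0.066 for the neighbours of all tested genes. Of these, 0 met the leaf criteria (0.535% of the neighbours of all tested genes did), and 5 met the apex criteria (5.15%, against 0.933%). Over the 5 models on each side of a member, the median log2 ratio at each position lay between -0.10 and 0.03.

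**Figure D5:**
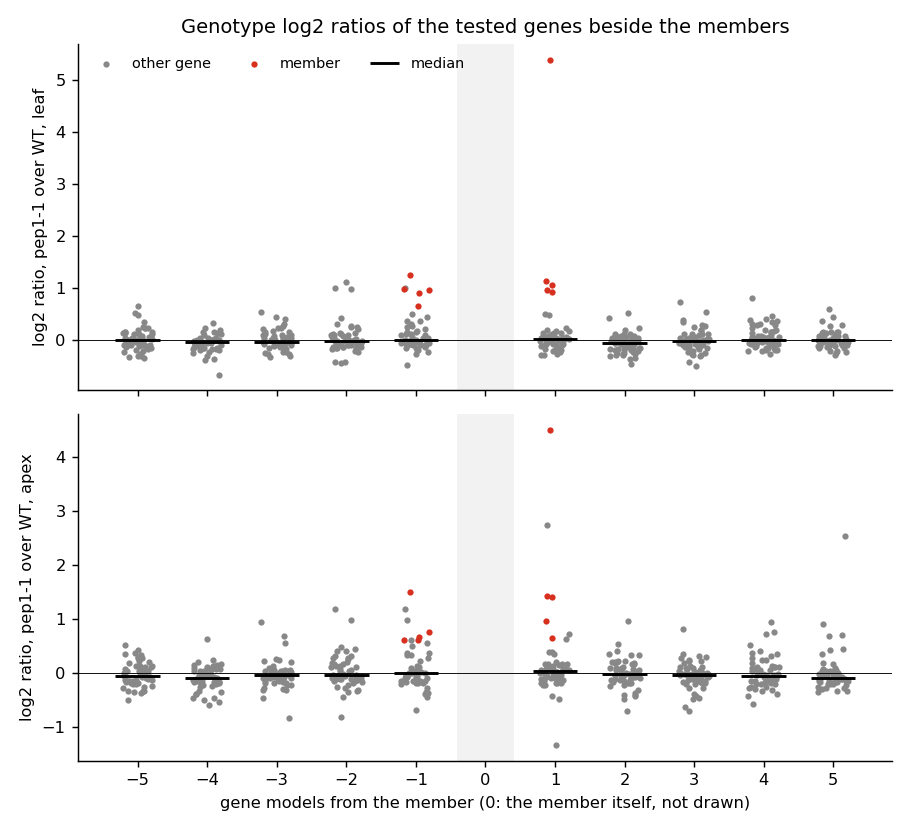
Log2 ratio of pep1-1 over WT of the tested gene models up to 5 positions before and after each member, in leaf and in apex, with other members marked and the median drawn at each position. Members stand alone in most stretches: the medians lie between -0.10 and 0.03, and the marked members beside position 0 come from the 5 pairs.

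For 11 members the tables list several transcripts, with 12 transcripts not used by the rule. All 12 had every pep1-1 library above every WT library in both organs, with log2 ratios between 0.60 and 1.91. They held 85.8% to 100% of the reads of the transcript used, so they largely count the same reads and are no second measurement.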

How the data were processed

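The authors deposited whole-number read counts per annotated transcript (39814 transcripts of 35465 genes), not normalized. The submitters' processing notes name TopHat, bedtools and DESeq2 1.10.0, with no role for any of them; genome build, annotation, strand and alignment settings were not given in the sources used here. Reads of overlapping or near-identical genes may be split or shared between them. Libraries came from polyadenylated RNA out of 4 µg total RNA with 12 PCR cycles, per the labels.

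For each gene the transcript with most reads over the 12 libraries was used. CPM are counts scaled to a library sum of 1000000 over these transcripts, and SD is between replicates. Members and lists were chosen with earlier results of these data known. Tests used edgeR 4.0.16 in R 4.3.3: the quasi-likelihood F test with robust dispersion, TMM factors, filterByExpr and Benjamini-Hochberg adjustment over all genes tested, with 4 group means over 12 libraries for the organ contrasts and the interaction, and 6 libraries per organ for the genotype. Standard errors are the absolute log2 fold change divided by root F. The low-count filter passed 23517 genes in the 12-library fit, 22936 in leaf and 22157 in apex.

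Members named are on-off cases, the 12 with the largest smaller-of-2 log2 ratio and at least 1 CPM in pep1-1, the 5 highest in CPM, up to 4 per direction of the organ contrast, those at the fold minimum and those in pairs. Members 13, 23, 37, 38, 44, 47 and 52, the neighbouring models and the transcripts not used were singled out after their values were seen. Ratio intervals are exact binomial at 95% and cover counting error only. The organ fit and the rule were also run on simulated counts with known changes, as a check of the code only. For the rule these were 4-fold changes in genes with ample reads, so smaller differences and genes with few reads were not covered. The main tests did not treat same-numbered libraries as pairs, and whether the numbers mark a shared origin is not known. Deviations of same-numbered libraries correlated between -0.15 and 0.41. Between pep1-1 apex and WT apex the values were 0.4, -0.027 and 0.41 for replicates 1, 2 and 3. Alternatives were DESeq2 1.42.0, limma 3.58.1 with voom, median-ratio factors, no filter, the replicate block, pep1-1 libraries only, a stricter threshold, other rule settings, each library left out and, added after the data had been seen, library sums. The flowering, gibberellin, stress and marker lists that need gene names were not analysed here.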

Additional observations from a re-analysis of the deposited data

How the results depend on the processing

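Of 157 recomputed counts, 138 stayed within 1.5 times of the main count. The 138 include interaction counts of 0 against a main count of 0, where a factor has no meaning, so the share overstates stability. The number of members, 77, became 116 with an added 0.1 CPM and 26 with a 2-fold minimum; it was 62 with an added 1 CPM, 112 with TMM and 111 with median-ratio factors, 78 with summed transcripts and 73 among genes of at least 1 CPM, and ranged from 65 to 120 with 1 library left out (120 without replicate 3 of pep1-1 leaf). Members higher in leaf in pep1-1, 3 in the main test, were 9 with library sums, 0 at an adjusted p under 0.01 and 0 to 4 with 1 library left out; the higher-in-apex count ran from 45 to 55. The interaction count was 1 with DESeq2, and 0 with the other alternatives run. Genotype calls among members were 61 in leaf and 65 in apex with DESeq2, and ranged from 17 to 45 in leaf and from 6 to 24 in apex with 1 library left out. With the replicate number as a block, organ calls were 53 in apex and 3 in leaf in pep1-1 and 54 and 8 in WT. The interaction then had 0, and genotype calls were 23 in leaf and 61 in apex. A same-numbered library correlated best in 1 or 2 of 3 cases per comparison, so whether the numbers pair the samples stays unsettled. Pairs within 5 kb were 4 and within 20 kb 5. Of 1283 values under alternatives (log2 ratios of the named members, and organ fold changes in pep1-1 of members 8, 16, 36, 42, 43, 75 and 77), 1234 kept their side of the threshold or moved by less than the replicate SD, 39 moved by more, 10 lost their call (members 8, 75 and 77, with 1 pep1-1 library left out) and 0 reversed. The rule itself kept log2 ratios from reversing when a library was left out or the added value changed, so the 0 is no support for them. Among the 53 members called higher in apex in pep1-1, most of them outside these values, 2 fell below 0 with library sums. Organ calls of other named members were lost with library sums: members 4, 7 and 57 in pep1-1, and members 3, 7 and 57 in WT. Members 1 and 2, uncalled in the main test, were called higher in leaf in pep1-1 with library sums. The cause of these shifts was not tested. Members under 1 CPM in WT rest on few reads, and their ratios carry wide counting intervals.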

Other observations

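A stretch of chromosome 6 from 4442887 to 5040557 (0.598 Mb, 92 gene models, 69 of them tested) held 4 members, which are members 74, 1, 36 and 19, and was chosen after its values were seen. The same stretch held 1 gene that was lower in pep1-1 in both organs, at 4661693-4663219. That gene averaged 0.287 ± 0.174 CPM in pep1-1 leaf and 37.8 ± 16.7 CPM in WT leaf, and 0.0944 ± 0.0917 CPM in pep1-1 apex and 28.8 ± 10.3 CPM in WT apex (SD, n = 3 each). Its log2 ratios were -5.60 in leaf and -5.62 in apex. Member 1, in the same stretch, had log2 ratios of opposite sign, 5.39 in leaf and 4.5 in apex. Member 19 (5038566-5040557) and member 36 were higher in apex than in leaf in pep1-1, with log2 fold changes of 2.34 and 5.01. Members 1 and 74 were not called with TMM factors, and member 1 was higher in leaf with library sums (-1.13).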
